A study of Mus musculus with 4 samples.

Results

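Cells of the first epithelial stages of the nephron, the pretubular aggregate and the renal vesicle, were examined in single-cell RNA libraries of mouse kidney. They were chosen by 4 transcripts: at least 2 UMIs of Lhx1, at least 2 of Wnt4, at least 1 of Pax8 and none of Ret, among cells in which 500 genes or more were detected and no more than 20% of UMIs were mitochondrial. A UMI (unique molecular identifier) stands for 1 captured RNA molecule. The rule was met by 1065 of 16220 cells: 271 of 3565 at embryonic day 15.5 (E15.5), 254 of 4563 at E17.5 and 540 of 8092 on the day of birth (P0). These cells are called aggregate and vesicle cells here. The E15.5 and P0 libraries were from ICR mice and the E17.5 library from C57BL/6 mice, all given as wild type and all made with droplet 3′ chemistry. There was 1 library per age, so age cannot be told apart from library, nor the E17.5 age from strain, and how many kidneys went into each library is not given in the labels. Another library, from E12.5 C57BL/6N kidneys that had been transplanted into epididymal fat for 12 days, held 4 such cells among 6618 and enters no comparison.

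As background, nephron progenitors around each ureteric tip carry Six2 and Cited1. Wnt9b from the ureteric epithelium induces some of them to express Wnt4 and Fgf8, to gather into a pretubular aggregate and to close into an epithelial renal vesicle, which expresses Lhx1 and Pax8. The vesicle then becomes polarized along its axis: Notch ligands and Wnt antagonists mark the distal part next to the ureteric tip, while Wt1 stays high in the proximal part that gives rise to podocytes, and the S-shaped body follows.

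Npy and Ccnd1, a pair of markers that the rule did not use, are described first. Members and gene lists were chosen with earlier results of these data known. The levels of this pair are thus no independent check of the label. Npy (neuropeptide Y, ENSMUSG00000029819, GRCm38 chromosome 6, 49822710 to 49829507, plus strand) had 59.2, 88.4 and 192 CPM (UMIs summed over cells and scaled to a total of 1000000) in aggregate and vesicle cells of the E15.5, E17.5 and P0 libraries, against 5.81, 5.74 and 21.4 CPM in the rest of each library. Ccnd1 (cyclin D1, ENSMUSG00000070348, chromosome 7, 144929931 to 144939925, minus strand) had 979, 979 and 852 CPM, against 206, 187 and 154 CPM in the rest. Both markers were above the rest in each library.

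Of the genes that set the rule, the cells held a median of 12, 6 and 7 UMIs of Lhx1 at E15.5, E17.5 and P0, 12, 7 and 10 UMIs of Wnt4, and 7, 4 and 4 UMIs of Pax8. Members at the edge of the rule were set beside cells just outside it. The 28, 34 and 67 cells with exactly 2 UMIs of Lhx1 had 41.6, 72.8 and 113 CPM of Npy, against 46.7, 33.1 and 94.4 CPM in the 36, 40 and 102 cells left out for having 1 UMI. The 27, 29 and 52 cells with exactly 2 UMIs of Wnt4 had 14.9, 34.2 and 65.0 CPM of Npy, against 8.76, 25.4 and 32.0 CPM in the 63, 40 and 85 cells with 1 UMI. At the Pax8 edge, the 24, 32 and 65 cells with 1 UMI had 22.7, 86.4 and 102 CPM of Npy, against 6.38, 58.1 and 102 CPM in the 6, 19 and 46 cells with none. Npy was thus higher inside the rule at most edges, with the reverse for Lhx1 at E15.5 and no gap for Pax8 at P0. Ccnd1 had 236, 494 and 424 CPM in the cells with 2 UMIs of Lhx1, against 349, 497 and 365 CPM in those with 1. In the cells with 2 UMIs of Wnt4 it had 564, 616 and 563 CPM, against 574, 675 and 401 CPM in those with 1. At both of these edges Ccnd1 was lower inside the rule at E15.5 and E17.5 and higher at P0. At the Pax8 edge Ccnd1 was higher inside the rule in each library, at 390.9, 720.5 and 549.5 CPM against 357, 546.7 and 529.4 CPM.

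Some members also held ureteric transcripts. A total of 18 of 271 cells at E15.5, 4 of 254 at E17.5 and 7 of 540 at P0 had 3 or more UMIs over Wnt9b and Gata3, genes of the ureteric epithelium. At E15.5, E17.5 and P0 these cells had 2.44, 32.3 and 53.1 CPM of Npy and 192, 205 and 638 CPM of Ccnd1, each below the level of all members, and 369, 830 and 113 CPM of Calb1, a ureteric gene that did not choose them. Age ratios of some genes, the Six2 split and the Wt1 split are also given without them. Summed over 10 ureteric markers, aggregate and vesicle cells had 188, 187 and 109 CPM at E15.5, E17.5 and P0, against 351, 654 and 501 CPM in the rest, with Ret at 0 by the rule and Wnt9b also at 0 at P0. Over 12 stromal markers the sums were 264, 483 and 139 CPM, against 1894, 1011 and 781 CPM. Over 10 endothelial markers they were 98.7, 73.2 and 73.2 CPM, against 386, 891 and 872 CPM. No stromal, endothelial, podocyte, macrophage or erythroid marker was higher in aggregate and vesicle cells than in the rest in any of the 3 libraries. A tdTomato transcript was listed at 0, 0 and 23.9 CPM in these cells of the E15.5, E17.5 and P0 libraries, although the labels give no reporter.

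The rule counts UMIs and so depends on depth. Aggregate and vesicle cells had a median of 36186, 11826.5 and 17740 UMIs at E15.5, E17.5 and P0, against 22734, 7261 and 9996.5 in all cells. They made up 7.60% (95% Clopper-Pearson interval 6.75 to 8.52), 5.57% (4.92 to 6.27) and 6.67% (6.14 to 7.24) of the cells. After each cell was thinned to 5000 UMIs, the shares were 1.57%, 3.73% and 2.70%, an order of the ages that differs from that of all UMIs. All intervals cover counting error only. Pairs of these libraries shared 27 to 71 cell barcodes.

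To place the cells along the lineage, they were set against 3 other gates of the same libraries. The first held Six2 Cited1 cells (at least 2 UMIs of each, no Lhx1, Wnt4 or Ret), the uncommitted progenitors, with 457, 228 and 95 cells of the E15.5, E17.5 and P0 libraries. The second held Six2 Wnt4 cells without Lhx1 (at least 1 UMI of Six2 and 2 of Wnt4, no Ret), with 107, 86 and 340 cells. The third held Jag1 Lhx1 cells without Wnt4 (at least 2 UMIs of each, no Ret or Wnt9b), with 98, 51 and 136 cells. Counts were summed per gate and library and tested with edgeR's quasi-likelihood test with the library as a block; a gene is called at a Benjamini-Hochberg adjusted p under 0.05. The replicates are thus 3 libraries of different age and strain, and genes that set either gate are left out of every count of calls.

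Against Six2 Cited1 cells, aggregate and vesicle cells were lower in progenitor genes and higher in early transcription factors, Notch genes, cell junction genes and basement membrane genes. Among 11312 genes tested, 16.2% were called higher and 14.6% lower, so that calls in this comparison are common, and 3308 of all 3482 calls (gate genes included) had the same sign in each of the 3 libraries. Without the E17.5 library, 1192 genes were called higher and 915 lower. The largest gain among genes of at least 50 CPM belonged to Osr2, an odd-skipped transcription factor (ENSMUSG00000022330, chromosome 15, 35296098 to 35303305, plus strand). Osr2 had 269, 264 and 169 CPM in aggregate and vesicle cells of the E15.5, E17.5 and P0 libraries, against 4.68, 3.89 and 1.46 CPM in Six2 Cited1 cells. No library of one gate overlapped the other (log2 fold change 5.80 ± 0.25 SE, adjusted p = 1.94e-10, edgeR).

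The gains that followed were spread over several kinds of genes. Lef1, which carries beta-catenin to DNA, had 45.2, 79.7 and 59.9 CPM against 1.34, 0 and 0.732 CPM (5.67 ± 0.37, adjusted p = 1.24e-08). Bmp2, a secreted ligand, had 58.9, 107 and 183 CPM against 0.920, 0.864 and 7.32 CPM (5.52 ± 0.23, adjusted p = 1.57e-10). The homeobox genes Irx3 and Emx2 rose with log2 fold changes of 5.40 and 5.14, and the lectin Clec18a with 5.23. Eva1a rose by 4.89, the protease Prss23 by 4.76 and the Notch ligand Jag1 by 4.68. All were higher in 3 of 3 libraries, which was a condition for naming them. Lhx1os, a transcript antisense to Lhx1, was 5.59 higher, but whether counting used the strand is not given in the sources used here, so reads of Lhx1 itself cannot be told apart from it. The markers moved the same way: Npy rose by 4.08 ± 0.38 (adjusted p = 7.04e-07) and Ccnd1 by 4.25 ± 0.22 (adjusted p = 1.22e-09).

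**Figure D1:**
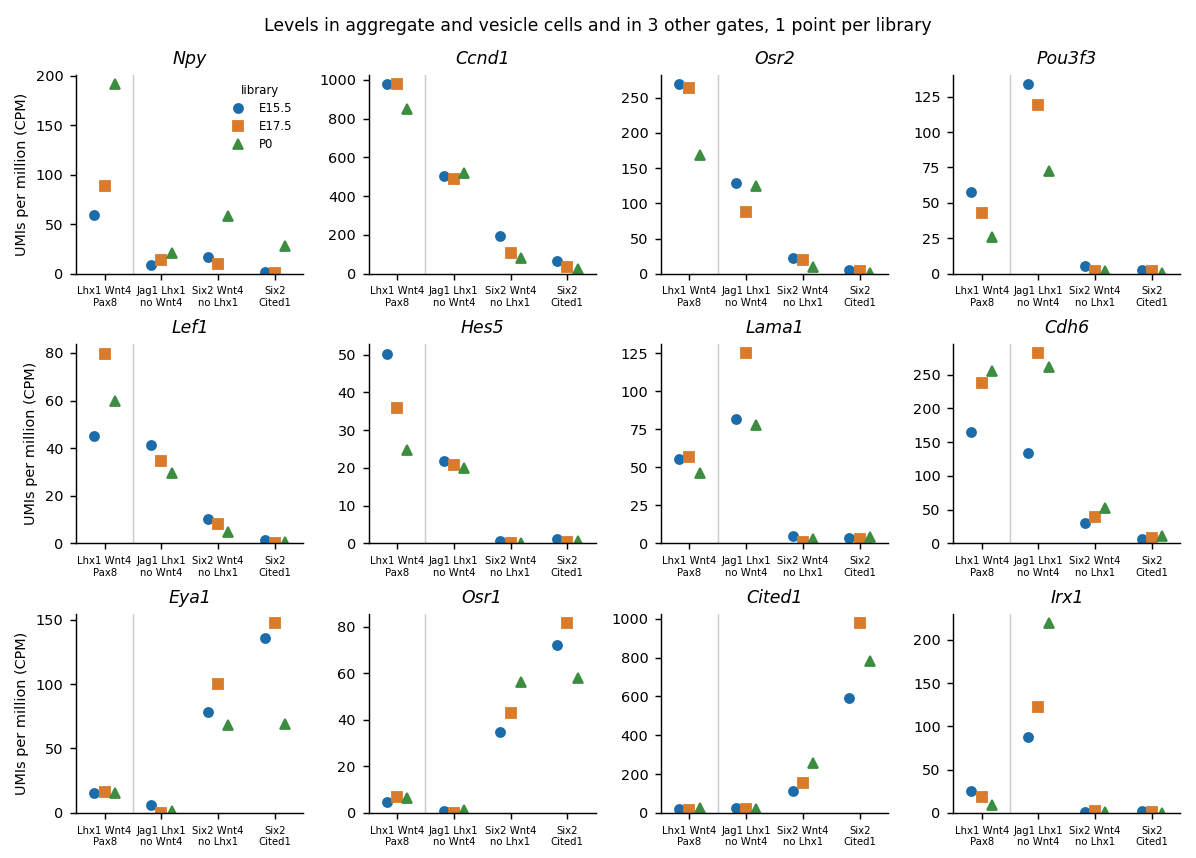
Levels in CPM (vertical axes, linear from 0) of single genes, 1 panel per gene, in aggregate and vesicle cells (left of the grey line) and in the Six2 Cited1, Six2 Wnt4 and Jag1 Lhx1 gates, with 1 point per library. Osr2 stood at 169 to 269 CPM in aggregate and vesicle cells and at 1.46 to 4.68 CPM in Six2 Cited1 cells.

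Among 24 early nephron transcription factors tested, 16 were called higher and 3 lower, with a median log2 fold change of 1.71 beside -0.01 over all genes. Pou3f3, a POU factor, had 57.8, 43.0 and 25.9 CPM, against 2.59, 1.73 and 0.732 CPM in Six2 Cited1 cells (4.35 ± 0.20, adjusted p = 2.91e-10). Its levels did not overlap between the gates, and within aggregate and vesicle cells they were highest at E15.5. Hnf4a (3.79), a proximal tubule regulator, and the SoxC factor Sox11 (1.10) rose too. Its relative Sox4 fell by 0.85 on the log2 scale, and Foxc1 fell by 0.72. Wt1 was not called at 178, 269 and 238 CPM, against 186, 295 and 248 CPM (-0.23 ± 0.12, adjusted p = 0.179), nor was Pax2 (0.13, adjusted p = 0.522).

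The progenitor list moved the other way: 0 of 17 tested members were called higher and 14 lower, with a median of -2.18. Robo2, a receptor for Slit proteins, had 29.1, 17.3 and 21.8 CPM in aggregate and vesicle cells, against 420, 382 and 187 CPM in Six2 Cited1 cells (-3.90 ± 0.17, adjusted p = 1.94e-10). Meox1 and Osr1, both transcription factors, and the thyroid hormone binding protein Crym fell by 3.86, 3.81 and 3.61. A few members were not called. Sall1 had 106, 81.2 and 60.8 CPM against 104, 67.4 and 61.5 CPM (-0.05, adjusted p = 0.799), and Uncx had 317, 479 and 368 CPM against 335, 385 and 244 CPM (0.13, adjusted p = 0.491). Outside the list, the deepest losses were in Traf1 (-5.06), Il33 (-4.98), the R-spondin Rspo3 (-4.57) and Tgfbi (-4.20). Each was lower in 3 of 3 libraries, as naming required.

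Notch signalling was higher at the level of ligands, receptor, modulator and target genes. Of 19 list genes tested, 10 were called higher and 1 lower (Adam10, the protease that sheds the receptor, -0.88 ± 0.12), with a median of 0.80. The ligand Dll1 had 73.0, 77.6 and 46.7 CPM in aggregate and vesicle cells, against 2.84, 2.16 and 3.66 CPM in Six2 Cited1 cells (4.43 ± 0.35, adjusted p = 1.04e-07). Lfng, the fringe glycosyltransferase that tunes the receptor's response to its ligands, had 114, 126 and 98.0 CPM against 6.91 to 12.4 CPM (3.34 ± 0.18, adjusted p = 1.24e-09). The groups did not overlap for either gene. The target gene Hes5 had 50.3, 35.8 and 24.7 CPM against 1.09, 0.432 and 0.732 CPM (5.31 ± 0.31, adjusted p = 3.79e-09), and the feedback gene Nrarp rose by 3.85. Hes1, another target, was not called at 254, 403 and 753 CPM against 340, 424 and 690 CPM (-0.28, adjusted p = 0.134).

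The promoters of Hes5 and Lfng are printed because both genes are described targets of the Notch effector RBPJ and both rose here. The bases before the annotated start (RefSeq, GRCm38.p6) are written 5′ to 3′ on the gene's strand, and capitals mark the RBPJ core GTGGGAA or, on the opposite strand, its complement. Sp5, a described beta-catenin target that also rose, is shown with capitals on the TCF/LEF core (CTTTG and then 2 bases, each A or T) or its complement. The windows are chr4:154960673-154960922 (plus strand) for Hes5, chr5:140607091-140607319 (plus strand) for Lfng and chr2:70474673-70474922 (plus strand) for Sp5.
Hes5: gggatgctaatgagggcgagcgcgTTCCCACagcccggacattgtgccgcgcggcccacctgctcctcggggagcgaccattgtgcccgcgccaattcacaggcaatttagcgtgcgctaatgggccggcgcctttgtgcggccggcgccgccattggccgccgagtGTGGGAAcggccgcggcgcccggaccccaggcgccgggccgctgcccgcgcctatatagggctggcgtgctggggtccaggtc
Lfng: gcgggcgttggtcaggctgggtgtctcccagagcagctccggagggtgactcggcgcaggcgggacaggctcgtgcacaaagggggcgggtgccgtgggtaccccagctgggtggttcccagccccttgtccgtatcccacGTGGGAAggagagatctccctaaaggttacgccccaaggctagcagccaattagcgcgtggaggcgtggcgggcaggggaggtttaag
Sp5: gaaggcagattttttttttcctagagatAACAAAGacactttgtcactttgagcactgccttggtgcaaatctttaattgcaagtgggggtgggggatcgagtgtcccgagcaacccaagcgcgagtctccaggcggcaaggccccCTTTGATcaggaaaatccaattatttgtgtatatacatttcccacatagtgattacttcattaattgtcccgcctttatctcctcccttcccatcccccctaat
Hes5 held 2 RBPJ cores, 226 to 220 bases before its start on the opposite strand and 83 to 77 bases before it on the same strand, and Lfng held 1, 109 to 103 bases before the RefSeq start. The core was found on either strand in the 250 bases before the RefSeq start of 3 of 15 Notch list genes with an entry (Hes5, Hey2 and Lfng, of which the 229 printed bases of Lfng stop where the gene annotation begins) and in 5.42% of all 32851 promoters. The TCF/LEF core was found in 5 of 19 Wnt list genes (Dkk1, Fzd7, Lef1, Sp5 and Tcf7l2) and in 14.8% of all promoters. The windows of Lhx1, Wnt4, Pax8 and Npy held neither. A match is a description of letters, not a bound site.

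Wnt signalling genes were called in both directions. Of 26 tested, 13 were called higher and 6 lower, with a median of 0.51. The R-spondin ligands Rspo1 and Rspo3 fell by 1.34 and 4.57, and the R-spondin receptors Lgr4 and Lgr5 rose by 1.86 and 2.53. Sp5 had 11.5, 8.66 and 19.9 CPM, against 1.59, 0.432 and 0 CPM in Six2 Cited1 cells (3.49 ± 0.48, adjusted p = 4.35e-05). The secreted antagonists Dkk1 and Sfrp2 rose by 3.96 and 3.06. Axin2, a widely used target of beta-catenin, was not called at 19.4, 10.8 and 10.6 CPM against 22.1, 15.6 and 8.78 CPM (-0.37, adjusted p = 0.141).

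FGF and BMP genes were also called in both directions, in part at the share found over all genes (16.2% higher and 14.6% lower). Of 20 FGF genes tested, 4 were called higher, close to that share, among them the receptors Fgfr2 (0.82), Fgfr3 (1.57) and Fgfr4 (2.73), and 7 lower, among them the ligands Fgf20, Fgf1 and Fgf10 and the ETS factors Etv1 and Etv4 that respond to FGF. Fgf8 itself, required for the survival of these cells, was not called at 33.2, 71.1 and 54.5 CPM against 25.6, 45.4 and 27.8 CPM (0.53, adjusted p = 0.0765). Of 18 BMP and TGF-beta genes, 7 were called higher, including Bmp4 (2.72), the pseudoreceptor Bambi (2.24) and the antagonists Nog (2.60) and Fst (2.76), and 3 lower, again close to that share. Tgfb2 had the deepest of those losses (-1.75 ± 0.24).

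Epithelial structure was called higher across both lists. Of 27 junction and polarity genes tested, 20 were higher and 1 lower, with a median of 1.96. Cdh6, the cadherin of the renal vesicle, had 165, 238 and 256 CPM in aggregate and vesicle cells, against 6.94, 7.78 and 10.2 CPM in Six2 Cited1 cells (4.48 ± 0.16, adjusted p = 3.40e-11). Cdh1, the cadherin of mature epithelium, had only 37.1, 22.7 and 17.9 CPM but was at 3.76, 3.02 and 1.46 CPM in Six2 Cited1 cells (3.05 ± 0.19, adjusted p = 8.92e-09). The desmosome gene Dsp rose by 5.37, and the gene called lower was Cdh2, the mesenchymal N-cadherin (-1.05 ± 0.12). Of 22 basement membrane genes, 16 were higher and 1 lower. Lama1, the laminin chain of early epithelia, had 55.3, 57.0 and 46.2 CPM against 3.76, 3.02 and 4.39 CPM (3.71 ± 0.22, adjusted p = 5.51e-09), and Lamb2, a chain of mature basement membranes, fell by 0.86. Of 16 mesenchymal genes, 6 were called lower, with Zeb1 at -2.72 and Vim at -1.68, and 3 higher, one of which was Fn1 (1.61).

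Proliferation genes rose by small amounts. Of 30 tested, 22 were called higher and 0 lower, with a median of 0.44 against -0.01 over all genes. Rrm2, a subunit of ribonucleotide reductase, had 141, 186 and 125 CPM against 75.4, 76.5 and 37.3 CPM (1.11 ± 0.15, adjusted p = 2.89e-05), and Cdk6 rose by 2.95. Mki67 was not called (0.03, adjusted p = 0.920). Beside these, dissociation stress genes were called lower for 11 of 24 and higher for 2, and 5 of 8 ureteric markers were called higher. Their part in the gene groups above was not tested. Without the members that held ureteric genes, 1856 genes were called higher and 1697 lower, close to the 1830 and 1647 with them.

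**Figure D2:**
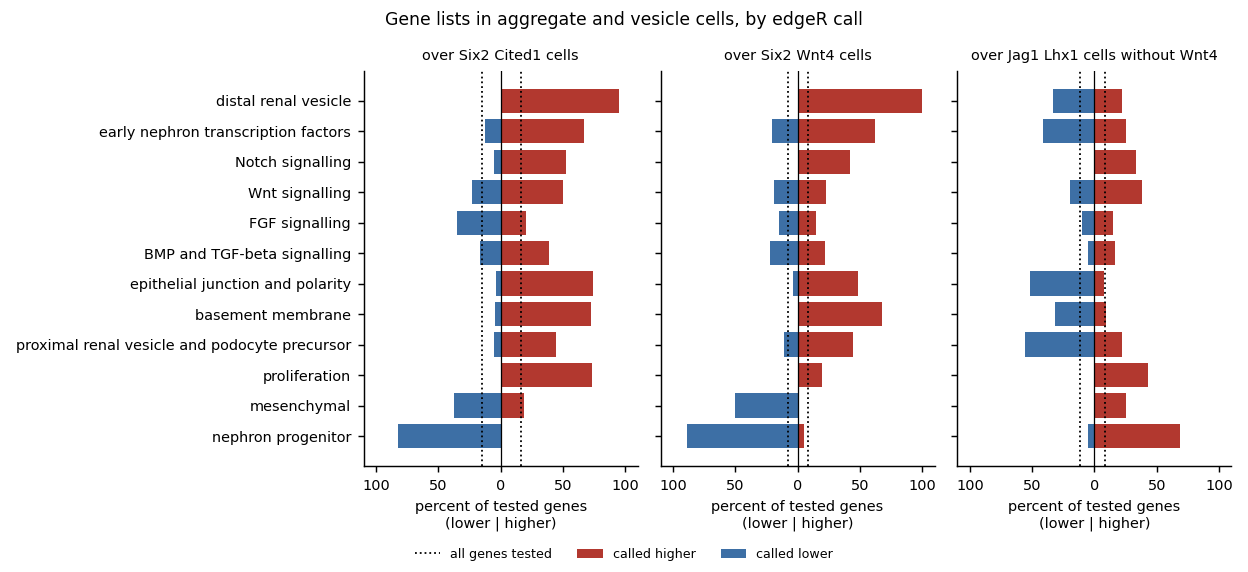
Percent of the tested genes of each list (vertical axis) that edgeR called higher (red, to the right) or lower (blue, to the left) in aggregate and vesicle cells, in 3 panels for the comparisons with Six2 Cited1, Six2 Wnt4 and Jag1 Lhx1 cells, with dotted lines at the percent of all genes. Progenitor genes lie to the left in the first 2 panels (14 of 17 and 16 of 18 lower) and to the right in the third (13 of 19 higher).

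Against Six2 Wnt4 cells without Lhx1, which carry the first induced gene, fewer genes were called. Among 11313 genes tested, 8.49% were called higher and 7.76% lower, and 1795 of 1843 calls (gate genes included) had the same sign in each library. Without the E17.5 library 595 were called higher and 447 lower, and without P0 519 were called lower. Of the distal renal vesicle list, 19 of 19 genes tested were called higher, with a median of 2.84 beside -0.01 over all genes. The gain was not only distal. Of 18 proximal renal vesicle and podocyte precursor genes, 8 were called higher and 2 lower, with a median of 0.71. Proximal tubule markers were called higher for 5 of 8 and lower for 0. Emx2 had 167, 144 and 78.1 CPM in aggregate and vesicle cells of the E15.5, E17.5 and P0 libraries, against 5.02, 12.0 and 1.28 CPM in Six2 Wnt4 cells (4.86 ± 0.25, adjusted p = 3.39e-09). Papss2, which makes the sulfate donor PAPS, had 33.1, 38.5 and 34.2 CPM against 1.77, 1.99 and 1.65 CPM (4.17 ± 0.21, adjusted p = 3.16e-09). Neither gene's ranges overlapped between the gates.

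Lef1 (10.3, 7.97 and 4.96 CPM in Six2 Wnt4 cells) and Ccnd1 (196, 105 and 83.0 CPM) were between Six2 Cited1 and aggregate and vesicle cells in each library, and both were called higher in aggregate and vesicle cells (2.89 ± 0.28, adjusted p = 2.14e-06, and 2.84 ± 0.20, adjusted p = 9.03e-08). Npy was called higher as well (1.91 ± 0.31, adjusted p = 0.000452) over 16.5, 9.97 and 58.0 CPM. The Notch genes Dll1, Lfng and Nrarp were at 0.997 to 8.44 CPM in Six2 Wnt4 cells over the libraries and at 2.16 to 12.4 CPM in Six2 Cited1 cells. All were called higher in aggregate and vesicle cells, with log2 fold changes of 3.67, 3.74 and 3.43. Hes5 was at 0.590, 0 and 0 CPM in Six2 Wnt4 cells, against which its level in aggregate and vesicle cells was called higher (adjusted p = 1.20e-08). Of 19 Notch genes tested, 8 were higher and 0 lower.

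Of 24 early transcription factors, 15 were called higher and 5 lower, and the 5 were Sox4, Id2, Foxc1, Myc and Pax2. Pax2 had 206, 177 and 163 CPM against 264, 267 and 171 CPM (-0.42 ± 0.13, adjusted p = 0.0409). Irx3 (4.10) was among the largest gains, as were the membrane-bound carbonic anhydrase Car4 (3.60) and Prss23 (3.61). Of 18 progenitor genes, 16 were lower and 1 higher, which was Uncx at 317, 479 and 368 CPM against 214, 334 and 201 CPM (0.57 ± 0.13, adjusted p = 0.00501). Cited1, which did not set this gate, had at most 27.3 CPM in a library, against at least 115 CPM in Six2 Wnt4 cells (-3.16 ± 0.24, adjusted p = 1.99e-07). The BMP regulator Bmper (-3.77), the synaptic vesicle gene Snap91 (-3.04), Tgfbi (-3.02), the cell adhesion gene Clmp (-2.97) and Cped1 (-2.86) were other large losses. Further losses were in Igfbp5 (-2.73), Kif26b (-2.72), Lhfp (-2.62) and Robo2 (-2.51). Each was lower in 3 of 3 libraries, as naming required.

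Mesenchymal genes were called lower for 8 of 16 and higher for 0, including Snai2 (-2.25), Cdh11 (-2.31) and Zeb1 (-1.77). Basement membrane genes were called higher for 15 of 22 and lower for 0, and Lama1 rose by 3.88 ± 0.24. Junction genes were called higher for 13 of 27, with Cldn6 (2.91) and Epcam (1.66) among them, and lower for 1, again Cdh2 (-0.87). Wnt genes showed no common direction, with 6 of 26 higher and 5 lower and a median of -0.03. Fgf8 was called higher here, at 33.2, 71.1 and 54.5 CPM against 12.4, 33.9 and 18.9 CPM (1.26 ± 0.24, adjusted p = 0.00134). Proliferation genes were called higher for 6 of 30 and lower for 0. The stress list had 3 of 24 lower and 1 higher.

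Against Jag1 Lhx1 cells without Wnt4, which stand for the S-shaped body, progenitor and proliferation genes were higher and junction genes lower. Among 11313 genes tested, 8.83% were called higher and 11.2% lower, and 2215 of 2265 calls (gate genes included) had the same sign in each library. Without the E17.5 library 442 were called higher and 679 lower, and without P0 452 and 558. That gate also held maturing tubule cells, since Umod, a marker of the thick ascending limb, was at 7.07, 8.32 and 70.0 CPM in it at E15.5, E17.5 and P0 and at 1.03, 2.09 and 1.48 CPM in aggregate and vesicle cells. All 8 proximal tubule markers tested, 6 of 8 podocyte markers and 4 of 6 loop and distal markers were called lower in aggregate and vesicle cells. The part of those maturing cells in the differences was not tested.

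Genes with higher levels in aggregate and vesicle cells included several that progenitors share. Of 19 progenitor genes, 13 were called higher and 1 lower, with a median of 1.52. Tmem100 had 52.9, 61.2 and 44.6 CPM, against 4.98, 8.32 and 6.43 CPM in Jag1 Lhx1 cells (3.20 ± 0.37, adjusted p = 3.98e-05). The transcription factor Mycn had 83.5, 116 and 112 CPM against 11.5, 16.6 and 25.4 CPM (2.59 ± 0.21, adjusted p = 1.81e-06). Npy had 59.2, 88.4 and 192 CPM against 8.65, 13.9 and 20.7 CPM (3.11 ± 0.37, adjusted p = 4.62e-05). None of the 3 genes overlapped between the gates, but all were among the largest gains, which needed 1 sign in the 3 libraries. Npy was thus higher in aggregate and vesicle cells than in each of the 3 other gates. Without the library block, however, its comparison with Jag1 Lhx1 cells missed the threshold (3.01, adjusted p = 0.132). The cyclin Ccnd2 (1.82), the laminin Lama4 (2.04) and the Notch target Heyl (1.70) were also higher. Lama4 missed the threshold without the library block (2.06, adjusted p = 0.0613, edgeR). Tmem100 (1.38, adjusted p = 0.567, edgeR) and Heyl (1.28, adjusted p = 0.318, edgeR) missed it after thinning to 5000 UMIs.

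Of 18 Notch genes tested, 6 were called higher and 0 lower, with Hey1 at 99.9, 154 and 271 CPM against 39.6, 51.3 and 72.5 CPM (1.65 ± 0.20, adjusted p = 6.11e-05). Of 26 Wnt genes, 10 were higher and 5 lower. Axin2 was among those called higher (0.99 ± 0.22, adjusted p = 0.00563), and Lgr4 and Lgr5 among those lower (-0.81 and -1.05). Proliferation genes were higher for 13 of 30 and lower for 0.

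Several transcription factors were lower in aggregate and vesicle cells. Irx1 had 25.5, 17.9 and 9.34 CPM, against 87.2, 122 and 219 CPM in Jag1 Lhx1 cells (-3.01 ± 0.36, adjusted p = 5.54e-05). Irx2 and Tfap2b, a factor of distal segments, fell by 3.17 and 3.42. Irx3 was not called (0.34, adjusted p = 0.135). Of 24 early transcription factors, 6 were higher and 10 lower. Of 18 distal renal vesicle genes, 4 were higher and 6 lower, with a median of -0.04 beside -0.02 over all genes. Of 18 proximal renal vesicle and podocyte precursor genes, 4 were higher and 10 lower, with a median of -1.04. Epithelial structure was lower too, with 14 of 27 junction genes called lower and 2 higher: Cldn7 had 46.6, 44.5 and 28.5 CPM against 138, 200 and 263 CPM (-2.31 ± 0.23, adjusted p = 9.58e-06), and Cdh1 fell by 1.62. The groups did not overlap for Cldn7. Sostdc1, a secreted BMP and Wnt antagonist, had 24.4, 19.1 and 13.7 CPM against 209, 189 and 281 CPM (-3.53 ± 0.38, adjusted p = 2.11e-05). Ly6a (-2.96), Aadat (-3.32), Spink1 (-3.09), Mep1a (-2.91), Tmem52b (-4.46) and the sodium transporter Slc12a1 (-3.52) were the remaining large losses, of which Slc12a1 missed the threshold in DESeq2 (adjusted p = 0.0563).

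The members were not uniform. By Six2 and Jag1, 17, 10 and 33 cells of the E15.5, E17.5 and P0 libraries held Six2 without Jag1, 157, 179 and 351 held Jag1 without Six2, 77, 20 and 110 held both and 20, 45 and 46 neither. These classes rest on any UMI, so they depend on depth. After thinning, 8, 1 and 17 of 268, 252 and 535 members held both, 125, 107 and 222 neither. Six2 without Jag1 was held by 16, 10 and 39. Before thinning, Six2 was in 13.1%, 2.36% and 1.49% of endothelial cells, against 34.7%, 11.8% and 26.5% of members. Jag1 was in 34.8%, 17.5% and 21.0% of endothelial cells, against 86.3%, 78.3% and 85.4% of members. The part of depth in the split was not tested. Six2-bearing cells without Jag1 were set against Jag1-bearing cells without Six2 in a fit of their own. Among 9059 genes tested, 1.09% were called higher and 1.29% lower, and the Six2 side rests on as few as 10 cells in a library. Of 15 progenitor genes, 10 were higher and 0 lower. Spock2, an extracellular proteoglycan, had 83.0, 94.2 and 78.9 CPM in Six2-bearing cells, against 20.1, 17.2 and 14.2 CPM in Jag1-bearing cells (2.32 ± 0.24, adjusted p = 7.47e-05). Its ranges did not overlap.

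The Notch genes Dll1, Lfng and Hes5 were lower in Six2-bearing cells. Dll1 had 4.88, 0 and 8.93 CPM in Six2-bearing cells, against 96.6, 90.8 and 58.5 CPM in Jag1-bearing cells (-3.57 ± 0.38, adjusted p = 8.13e-05). Lfng had 3.26, 7.85 and 19.4 CPM against 142, 147 and 130 CPM (-3.56 ± 0.34, adjusted p = 4.87e-05). Hes5 had 3.26, 7.85 and 1.49 CPM against 76.0, 34.9 and 30.8 CPM (-4.10 ± 0.46, adjusted p = 0.000118). In each of these genes all 3 Jag1-bearing sums exceeded all 3 Six2-bearing ones. Of 16 Notch genes, 5 were lower in Six2-bearing cells and 0 higher, with a median of 0.00, and of 16 distal vesicle genes 10 were lower and 0 higher, with a median of -1.54. Cdh6 (-2.68), Prnp (-3.33), Irx3 (-3.21), Car4 (-3.10), Prss23 (-2.75), Lama1 (-2.36) and Osr2 (-1.85) were lower as well, while Wt1 was higher, at 247, 557 and 304 CPM against 131, 226 and 209 CPM (0.91 ± 0.14, adjusted p = 0.00216). The median log2 fold change of the 30 proliferation genes was -0.08, beside -0.01 over all genes. Over all genes 99 were called higher and 117 lower. The counts were 11 and 15 without the library block, 28 and 37 without P0, 179 and 269 without E15.5, and 153 and 196 without the members that held ureteric genes.

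A second axis, chosen after its values were seen and so given with no test, ran along Wt1. Wt1 held no place in the rule (ENSMUSG00000016458, chromosome 2, 105126529 to 105173616, plus strand). Cells with at least 2 UMIs of Wt1 per 10000 (Wt1-high) were 85, 103 and 238 of the members at E15.5, E17.5 and P0, and cells with under 0.5 per 10000 (Wt1-low) were 123, 86 and 149. Median depths were 32662, 11230 and 16571 UMIs in Wt1-high cells and 37853, 11966.5 and 20231 in Wt1-low cells. Of 3145 genes with a mean of at least 50 CPM in either group, 1.43% were at least 2 times higher in Wt1-high cells in each of the 3 libraries, and 2.29% were at least 2 times higher in Wt1-low cells. These were 45 and 72 genes, and 48 and 65 without the members that held ureteric genes, which made up 1, 1 and 1 of the Wt1-high and 16, 3 and 5 of the Wt1-low cells.

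Wt1-high cells carried Foxc2, a forkhead factor known from podocyte precursors. Foxc2 had 150, 136 and 170 CPM in Wt1-high cells of the E15.5, E17.5 and P0 libraries, against 5.40, 8.01 and 16.2 CPM in Wt1-low cells. Tmem100 had 160, 148 and 90.5 CPM against 3.67, 1.78 and 1.30 CPM. For both genes the lowest Wt1-high sum was several times the highest Wt1-low sum. The tight junction gene Cldn5 (298, 401 and 246 CPM against 22.6, 37.4 and 29.1 CPM) and the myelin-type membrane gene Pmp22 (88.7, 160 and 161 CPM against 4.44, 6.23 and 4.86 CPM) lay on the same side.

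Wt1-low cells carried distal vesicle genes. Dkk1 had 3.81, 3.14 and 2.46 CPM in Wt1-high cells, against 95.5, 81.9 and 55.7 CPM in Wt1-low cells. Pou3f3 had 7.62, 0 and 4.25 CPM against 102, 86.3 and 55.7 CPM, and the bHLH-PAS factor Sim1 had 1.73, 0 and 1.56 CPM against 53.3, 83.7 and 34.0 CPM. All 3 genes were at 7.62 CPM or less in Wt1-high cells of each library. Lfng had 52.6, 63.5 and 62.3 CPM against 160, 200 and 138 CPM, and Hes5 had 17.7, 14.9 and 7.37 CPM against 79.7, 63.2 and 48.2 CPM. Epithelial genes followed: Cldn6 had 13.5, 13.3 and 14.7 CPM against 94.4, 134 and 114 CPM, and Epcam had 28.7, 51.7 and 51.4 CPM against 154, 309 and 220 CPM.

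By list, 9 of 15 distal vesicle genes of that level were at least 2 times higher in Wt1-low cells in all 3 libraries and 0 in Wt1-high cells. Of 14 junction genes, 7 were higher in Wt1-low cells and 1 in Wt1-high cells. Without the members that held ureteric genes the 7 became 4, since Cdh16, Cldn4 and Krt8 no longer passed, while the 9 distal vesicle genes were still 9. Of 8 proximal vesicle genes, 3 were higher in Wt1-high cells and 1 (Cdh6) in Wt1-low cells, and of 25 proliferation genes 0 were higher on either side. Npy (84.5, 103 and 230 CPM against 39.8, 67.6 and 110 CPM) was higher in Wt1-high cells by 2.13, 1.52 and 2.09 times, under this mark at E17.5. Ccnd1 (1089, 1140 and 984 CPM against 835, 859 and 667 CPM) was higher by 1.30, 1.33 and 1.48 times, under it in each library. Osr2, the gene of largest gain over Six2 Cited1 cells, did not follow the axis, at 235, 256 and 147 CPM in Wt1-high cells and 260, 222 and 211 CPM in Wt1-low cells. Six2 was found in 42 of 85, 19 of 103 and 83 of 238 Wt1-high cells and in 26 of 123, 1 of 86 and 11 of 149 Wt1-low cells, so the Six2 and Wt1 splits share cells.

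**Figure D3:**
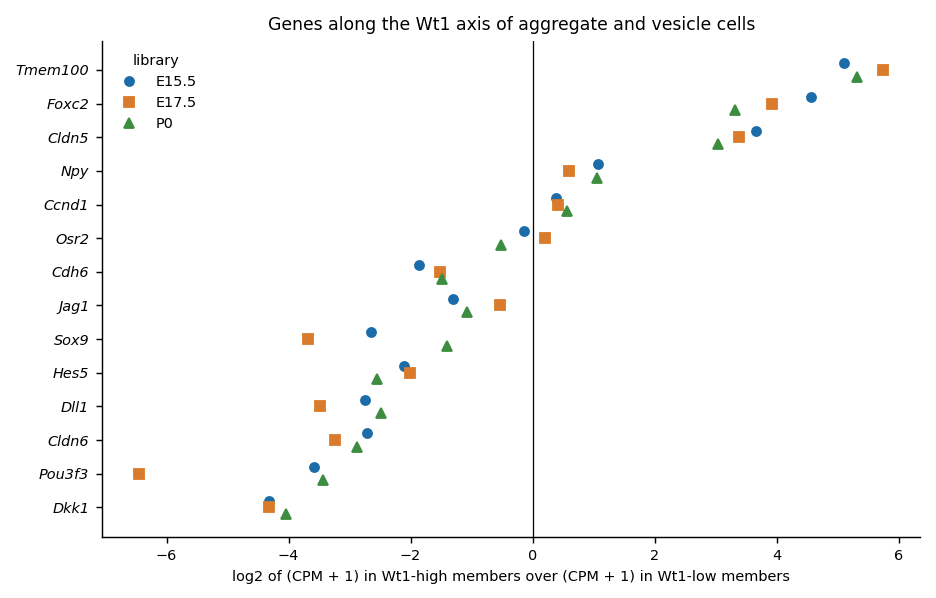
Log2 of (CPM + 1) in Wt1-high over (CPM + 1) in Wt1-low aggregate and vesicle cells (horizontal axis) for genes of the Wt1 split (vertical axis), 1 point per library. Tmem100, Foxc2 and Cldn5 lie to the right of 0 and Dkk1, Pou3f3 and Cldn6 to the left in all 3 libraries.

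Npy and Ccnd1 were spread differently over the cells. Npy had at least 1 UMI in 159 of 271 (58.7%), 121 of 254 (47.6%) and 381 of 540 (70.6%) cells of the E15.5, E17.5 and P0 libraries, and the 10% of cells richest in Npy held 42.1%, 50.3% and 43.9% of its UMIs. After thinning to 5000 UMIs the shares were 20.9%, 27.4% and 49.2%, against 0.922%, 0.845% and 2.96% of endothelial cells thinned alike, which had medians of 30140, 11076 and 11044 UMIs before thinning. Ccnd1 had a UMI in 97.8%, 96.1% and 96.9% of the cells, and the richest 10% held 27.4%, 29.3% and 27.2% of its UMIs. Npy was at 0 in 112, 133 and 159 cells.

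**Figure D4:**
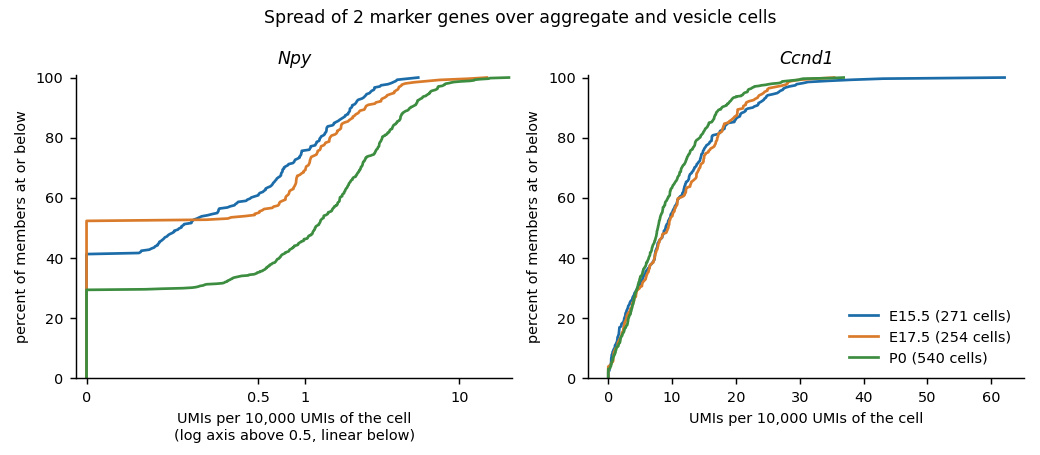
Percent of aggregate and vesicle cells at or below a level (vertical axis) against UMIs per 10000 of the cell (horizontal axis, for Npy logarithmic above 0.5 and linear below), with 1 line per library, for Npy and Ccnd1. The Npy line of P0 starts at 159 of 540 cells with 0 and lies to the right of those of E15.5 and E17.5, whereas the Ccnd1 lines lie close together.

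Between ages the cells differed in stress genes, genes of the BMP list and regional genes, with no test since each age is 1 library. Of 10949 genes with at least 50 UMIs over both libraries, 4.89% were at least 2 times higher at P0 than at E15.5 and 6.48% were at most 0.5 times, with a median log2 ratio of -0.10. Scaled to a median of 0, these counts were 633 and 567, in place of 535 and 710. At E17.5 over E15.5, 3.13% of 10331 genes were at least 2 times and 4.14% at most 0.5 times, with a median of 0.06. The 2 comparisons share the E15.5 library. Among the rule's own genes, Lhx1 had 422, 534 and 472 CPM, Wnt4 435, 646 and 623 CPM and Pax8 194, 323 and 261 CPM at E15.5, E17.5 and P0. Npy was 3.24 times (95% interval 2.96 to 3.55) and Ccnd1 0.870 times (0.846 to 0.895) at P0 relative to E15.5.

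Ranked by the lower bound of the ratio's interval, the largest increases at P0 were in immediate early and stress genes. The chemokine gene Cxcl1 had 1.03, 6.27 and 100 CPM at E15.5, E17.5 and P0, a ratio of 97.4 (54.2 to 196) at P0 over E15.5, and the heat shock gene Hspa1a had 1.69, 9.26 and 123 CPM (ratio 73.1, 46.1 to 124). Atf3 had 13.7, 75.0 and 365 CPM (26.7, 22.7 to 31.7), and Gadd45b, Dusp8, Egr4, Maff and Cxcl10 were the other genes named by the same measure. Without the members that held ureteric genes the ratio was 123 for Hspa1a, 75.2 for Atf3 and 57.8 for Egr4, the last against 31.8 with all members. E17.5 lay between the other ages for each of these. Of 24 dissociation stress genes, 18 were at least 2 times higher at P0 and 0 at most 0.5 times, with a median log2 ratio of 1.78, and at E17.5 it was 15 of 22. The list's sum in the rest of the libraries ran the same way, at 5373, 13010 and 18230 CPM at E15.5, E17.5 and P0, against 4468, 9258 and 12290 CPM in aggregate and vesicle cells. Of 18 ATF4 pathway genes, 10 were at least 2 times higher at P0, among them Chac1 and Trib3.

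The BMP list stood above the median of all genes as well. Of 19 genes, 10 were at least 2 times higher at P0 than at E15.5 and 0 at most 0.5 times, with a median of 1.23. The ligand Bmp2 had 58.9, 107 and 183 CPM, and the list genes Id1 and Id3 had 227, 945 and 738 CPM and 578, 1414 and 1963 CPM. The inhibitory Smad6 had 10.9, 11.6 and 37.9 CPM (3.49, 2.83 to 4.33), and the antagonist Nog had 5.06, 10.5 and 16.7 CPM. Id1 was highest at E17.5, and the other genes at P0. The ligands Bmp4 and Bmp7 were not higher at P0 than at E15.5 in either Wt1 group. Bmp4 had 88.5 against 118 CPM in Wt1-high and 50.2 against 51.5 CPM in Wt1-low cells. Bmp7 had 31.5 against 49.2 CPM and 62.2 against 68.7 CPM. In the FGF list Spry1, a feedback inhibitor, had 61.3, 121 and 219 CPM (3.58, 3.28 to 3.91), and Dusp4 and Dusp6 were also past 2 times. Id and Spry genes respond quickly to stimuli of many kinds, and the part of tissue dissociation in these values was not tested.

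Of 23 early transcription factors, 8 were at most 0.5 times at P0 and 4 at least 2 times. Of 19 distal renal vesicle genes, 7 were at most 0.5 times and 3 at least 2 times, with a median of -0.20 beside -0.10 over all genes. Mecom had 69.5, 29.0 and 22.4 CPM at E15.5, E17.5 and P0 (0.322, 0.277 to 0.373), Tfap2b 16.3, 9.56 and 3.42 CPM (0.210, 0.143 to 0.301) and Dkk1 54.5, 35.8 and 21.1 CPM (0.387, 0.330 to 0.452). Each was lower at each later age. Sox9 went the other way, at 43.1, 70.8 and 89.2 CPM (2.07, 1.85 to 2.32). The share of Wt1-low cells, in which Mecom and Dkk1 were higher, was 45.4%, 33.9% and 27.6% of members. The cut for Wt1-low cells depends on depth, however. Members with no UMI of Wt1 were 69 of 271, 83 of 254 and 113 of 540 at E15.5, E17.5 and P0. After thinning, Wt1 had a UMI in 39.6%, 55.6% and 53.5% of members. Neither of these measures moved steadily with age. The part of the Wt1-low share in the age ratios was not tested. The Notch targets split, with Hes5 at 0.491 times (0.422 to 0.570) and Hes1 and Hey1 at 2.96 and 2.71 times.

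Of 9 ureteric markers, 4 were at most 0.5 times at P0 and 1 at least 2 times. Gata3 had 36.0, 14.0 and 4.25 CPM at E15.5, E17.5 and P0 (8.45 times lower at P0) and Calb1 33.5, 29.3 and 4.44 CPM (7.55 times lower). Without the members that held 3 or more UMIs over Wnt9b and Gata3, Gata3 had 2.94, 1.84 and 1.31 CPM. Its log2 ratio moved to -1.16, against -3.08 with all members. Gata3 helped to choose the members left out, so this move was fixed by the choice. Calb1, which did not choose them, had 5.68, 6.45 and 2.91 CPM without them. The log2 ratio of Calb1 moved to -0.97, against -2.92 with all members. Tfcp2l1, a factor of collecting duct, moved likewise to -1.10, against -2.16. Aqp2, the water channel of collecting duct, was higher at P0, at 6.84, 21.5 and 30.9 CPM (ratio 4.52) with all members and 1.32, 4.91 and 13.8 CPM (ratio 10.5) without those members. The growth genes Hmga2 (142, 82.7 and 56.8 CPM), Igf2bp1 (129, 57.0 and 54.2 CPM) and Igf2bp3 (73.6, 50.2 and 32.6 CPM), which mark early embryonic stages, were lower at the later ages, whereas Igf2 had 493, 782 and 542 CPM. Of 18 genes of that list, 4 were at most 0.5 times at P0 and 0 at least 2 times.

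Genes of other kinds completed the named declines. Spata7 had 143, 27.8 and 26.2 CPM and Mt2, a metallothionein, 82.7, 9.86 and 17.5 CPM. Tpm3-rs7 (123, 2.09 and 3.05 CPM) and Snhg9 (84.2, 6.87 and 12.4 CPM) share sequence or overlap with other genes, so their counts are uncertain. Col1a1 had 34.4, 111 and 6.84 CPM, and 7 of 10 stromal markers tested were at most 0.5 times at P0. All 5 erythroid markers tested were at most 0.5 times too, with a list sum of 1085, 10.5 and 9.34 CPM in aggregate and vesicle cells and 14810, 53.5 and 15.1 CPM in the rest at E15.5, E17.5 and P0. Of the proliferation list, 2 of 30 genes (Ccne1 and Ccne2) were at most 0.5 times and 0 at least 2 times.

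**Figure D5:**
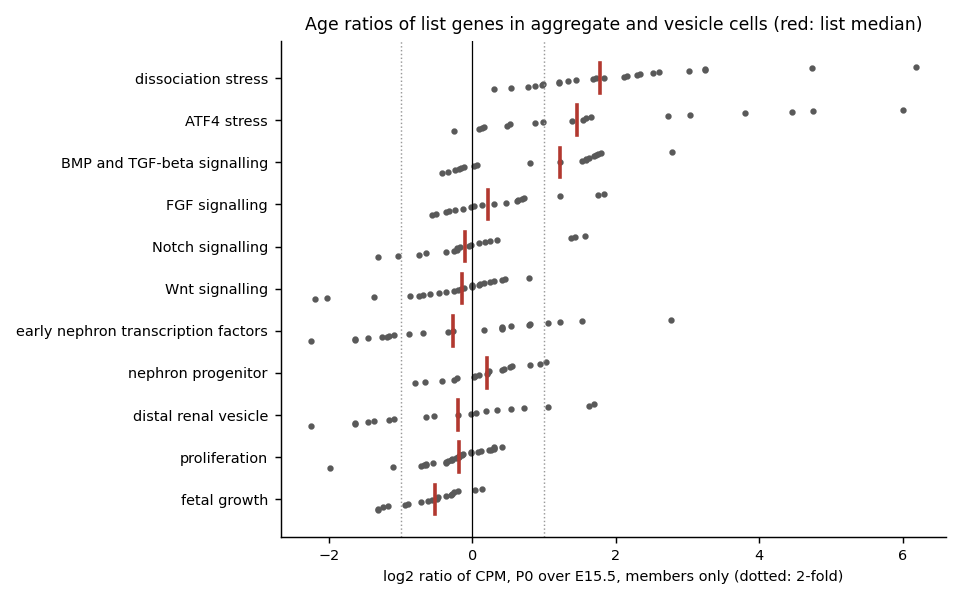
Log2 ratio of CPM at P0 over E15.5 within aggregate and vesicle cells (horizontal axis) for the genes of each list (vertical axis), 1 point per gene with at least 50 UMIs over both libraries, with the list median in red and dotted lines at 2-fold. The stress list has its median at 1.78 and the BMP list at 1.23, while the proliferation list lies at -0.19.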

How the data were processed

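Droplet 3′ libraries of mouse kidney were analysed from UMI counts per gene and cell, which the authors deposited as unnormalised counts after Cell Ranger (version 3.1.0 with GRCm38, per the submitters' processing notes, although the headers of the E15.5 and P0 matrices name 3.0.2). Cells needed 500 detected genes and at most 20% mitochondrial UMIs. Libraries held 4158, 5551 and 10810 barcodes and 92387054, 42430540 and 99068204 UMIs at E15.5, E17.5 and P0, and members held 10676781, 3348359 and 10812012 UMIs. Doublets were kept: 17, 11 and 34 members were doublet-like by a score and were left out in an alternative.

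Members and gene lists were chosen with earlier results of these data known, so list counts are descriptions. UMIs were summed per gate and library and tested with edgeR 4.0.16 in R 4.3.3 (TMM, filterByExpr, quasi-likelihood, library as a block because each library supplies every gate). Ages were compared by ratios of CPM with exact binomial 95% intervals that cover counting error only. The genes counted as named per comparison were the 10 called in each direction with the largest fold change. The text does not give all of them and adds markers and list genes. The 10 needed at least 50 CPM in the higher gate and 1 sign in the 3 libraries. Lack of overlap is stated for single genes picked for their fold change or from the lists. The share of all genes without overlap was not counted. For age, the 8 each way at 30 CPM or more were named, ranked by the bound of the ratio's interval nearer to 1. On simulated data, 89% to 100% of genes changed 4-fold and 19.2% to 46% of those changed 2-fold were called with the right sign. The simulation gave every gene the same spread and changed only genes above a minimum of UMIs. Its shares need not hold for the real libraries. Other normalization, DESeq2 1.42.0, filters, rules and thinning to 5000 UMIs were tried. The Wt1 split was chosen after its values were seen. A few genes that the rule names are not reported here.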

Additional observations from a re-analysis of the deposited data

Results flagged for a closer look

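In the transplant library, which enters no comparison, 4 of 6618 cells met the rule for aggregate and vesicle cells (0.0604%, 95% Clopper-Pearson interval 0.0165 to 0.155%, counting error only). This is a signal in data outside the main measurement. Its difference from the other libraries was not tested, since there is 1 library of each kind.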

How the results depend on the processing

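No named gene of the tests changed sign in any alternative that gave a value, and the call held in every alternative that gave a value for 20 of 20 named genes against Six2 Cited1 cells, 20 of 20 against Six2 Wnt4 cells, 14 of 20 against Jag1 Lhx1 cells and 7 of 20 between Six2-bearing and Jag1-bearing cells. Not all gave one: after thinning 19, 20 and 12 of these genes kept the call and 0, 0 and 3 lost it in the first 3 comparisons, and in the last 4 had a value and all 4 lost the call, so the 7 had none there. Each library supplies all gates, so the pairing is by source; without the library block 685 genes were called higher and 480 lower against Six2 Cited1 cells, 387 and 216 against Six2 Wnt4 cells, 141 and 288 against Jag1 Lhx1 cells, and 11 and 15 between Six2-bearing and Jag1-bearing cells. Leaving out 1 library gave 1192 to 1653 higher and 915 to 1280 lower, 595 to 901 and 447 to 793, 442 to 997 and 558 to 1237, and 28 to 179 and 37 to 269 in the same order of comparisons. After thinning to 5000 UMIs, where fewer genes and cells are tested, the counts were 545 and 576, 247 and 330, 33 and 48, and 2 and 2.

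Between Six2-bearing and Jag1-bearing cells DESeq2 called 49 higher and 64 lower, edgeR without a filter on low counts called 260 lower, and without members that held ureteric genes (chosen after seeing the data) 153 and 196 were called. The share of member cells of the E15.5, E17.5 and P0 libraries was 5.81%, 3.86% and 4.76% under a stricter rule, 10.8%, 7.82% and 9.86% under a looser one and 1.57%, 3.73% and 2.70% after thinning. At P0 over E15.5, 234 genes were at least 2 times and 99 at most 0.5 times after thinning, and 335 and 260 with at least 200 UMIs. At E17.5 over E15.5 these were 150 and 43, and 152 and 119, while a minimum of 20 UMIs gave 722 at most 0.5 times. After thinning, the P0 over E15.5 log2 ratio reversed for Calb1 (0.24) and Tfcp2l1 (0.05), and the cause was not tested. Gata3 gave no value since E15.5 was at 0. Of the other named age genes with a value after thinning, 9 moved outside the interval of the main ratio and 2 stayed within it. Under the stricter rule, under the looser rule and without doublet-like cells, 5 moved and 11 stayed in each case. Depth limits the E17.5 library most, and the Six2-bearing cells at 10 to 33 per library.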
